A study of Xenopus laevis with 30 samples.

Results

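Whole embryos of the clawed frog Xenopus laevis were compared at 2 points of the tailbud period, stage 31 (late tailbud) against stage 28. The comparison used 4 of the 30 arrays of the series, 2 per stage, chosen by the stage in their titles. Of 32539 probe sets other than controls, 16674 were tested because both arrays of at least 1 of these stages lay above their own array's median signal. At 15049 of them both stages did, at 779 only stage 28 and at 846 only stage 31. Of the probe sets tested, 9692 carried 1 gene symbol and stood for 6548 genes. All embryos were wild type and of mixed sex, no treatment was given in the labels, and each array received total RNA pooled from several whole embryos. The design text calls the arrays of a stage biological replicates but does not say whether pools came from different parents, so p-values measure the spread between these samples. Because whole bodies were pooled, more cells of a type and more RNA per cell cannot be told apart.

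In the tailbud period the body elongates and the organs whose precursors were laid down earlier begin to make their working proteins. The eye cup induces a lens, whose cells fill with crystallins. The first blood cells, formed in the ventral blood island, load with globin. The liver bud begins to secrete plasma proteins, neurons extend axons, mesenchyme lays down collagen, and the tail bud keeps adding trunk and tail tissue, whose position along the body is marked by posterior Hox genes. A gene is written with L or S for its copy on the long or short chromosome of a pair, since this species carries a doubled genome.

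Marker genes placed the arrays past the egg and cleavage stages, a check that cannot tell stage 28 from stage 31. The muscle genes actc1, myl1, ckm and mylpf lay between 14495 and 20610 units on all 4 arrays, and the egg genes h1-8, cpeb1, btg4 and fbxo43 lay under the array median. No probe set was found for the listed markers he, uvs.2, astl2c, crygdl and cela1. Other markers, listed with earlier results of these data known, went against the list. The blood genes hba1 and hbg1 were under the median on all 4 arrays, and pnlip, taken as a tadpole pancreas gene, was above it. The median signal ranged from 165.3 to 168.6 units, and with 2 arrays per stage precision is limited by their number. Log2 signals of replicates correlated across probe sets at 0.970 at stage 28 and 0.972 at stage 31, against 0.952 to 0.958 between the stages, and each array was nearest to its own replicate among the 30.

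Between stages 28 and 31, 4442 probe sets (26.6%) passed an adjusted p of 0.05 in a limma fit over all 30 arrays, 2050 (12.3%) higher at stage 31 and 2392 (14.3%) lower. Most of these changes were small. The median size was 0.44 among rises and 0.42 among falls on the log2 scale, and 1379 rises and 1729 falls were under 1.5-fold. At least 2-fold changes numbered 237 rises and 206 falls, and 169 and 121 when signals under the array median were raised to it. By gene, 930 of 6548 rose (14.2%) and 934 fell (14.3%). In a fit of the 4 arrays alone, 1135 genes rose (17.3%) and 1000 fell (15.3%), and over probe sets 5491 were called (32.9%). Counts of called members in each list below are to be read beside these shares of genes. Replicates of the stages did not overlap at 70.0% of probe sets and 70.7% of genes. In the plot of change against level, the called probe sets spread over the whole range of signal.

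**Figure D1:**
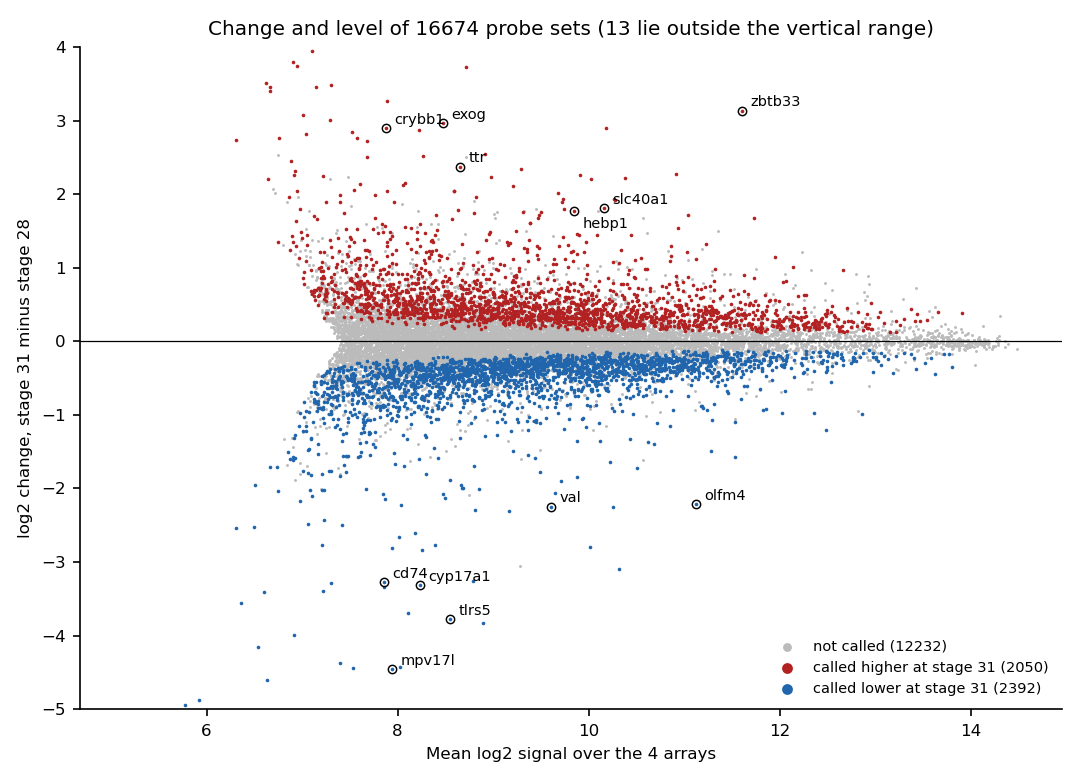
Each point is a probe set, with the mean log2 signal of the 4 arrays across and the log2 change from stage 28 to stage 31 upward, red and blue where called in the 30-array fit. Circled genes are among the 12 largest rises and falls, with zbtb33 standing apart from other rises at high signal and olfm4 among the falls. 13 probe sets lie outside the vertical range.

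Both fits are given below because they called different genes. They shared 3692 probe sets, 750 were called only by the 30-array fit and 1799 only by the 4-array fit. Those 1799 had a median replicate difference of 0.45 on the log2 scale at stages 2, 5 and 9, where many tissue genes were near zero, against 0.08 for probe sets called by both. At stages 28 and 31 the replicate differences of these classes were alike, 0.12 and 0.11. Genes named below that passed only the 4-array fit, or that lie outside the naming rule given with the processing, were chosen after their values were seen.

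All signals are relative to the total of their array. The added poly-A control RNA read 281.6 and 279.2 units on the stage 28 arrays and 246.3 and 244.0 on the stage 31 arrays. Scaled to it, all changes moved up by 0.19 on the log2 scale, the median of tested probe sets went from -0.02 to 0.17, and the split of calls changed from 46.2% higher to 85.4% higher, with 1578 rises and 269 falls among 1847 calls. A fall of less than 0.19 below is therefore a rise on that scale. A fold is written "at least" where the dimmer stage had an array under its median, and it is then set against that median.

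Of 38 lens genes listed, 15 had a probe set and 6 were tested. Of these 6, 2 rose in the 30-array fit and 5 in the 4-array fit, none fell in either, and the median log2 change was 1.70, against -0.01 over all genes tested. crybb1.S, a beta-crystallin of the lens fibre, had signals of 89.0 and 83.7 at stage 28 and 748 and 552 at stage 31. It was under the median at stage 28 and clearly above it at stage 31, at least 3.85-fold higher (adjusted p = 0.019), although its call was lost when any 1 of the 4 arrays was left out (adjusted p from 0.060 to 0.12). The L copy rose too (adjusted p = 0.045), a call also lost when any 1 of the 4 arrays was left out. It had 77.9 and 74.8 units at stage 28, under the median, and 936 and 578 at stage 31. Its log2 change of 3.27 was not set against the median and cannot be compared with the fold of the S copy. lim2.L, a membrane protein of lens fibres, went from 228 and 199 to 754 and 608, a 3.18-fold rise (adjusted p = 0.00032) that held without any 1 array. cryba4.S went from 211 and 249 to 1021 and 724 and passed only the 4-array fit (adjusted p = 0.00051). At stages 37-38 crybb1.S stood at 2175 and 1933.

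In the retina and pigment cell lists few genes were called in the 30-array fit. crx.S, a transcription factor of photoreceptors, had 124 and 135 units at stage 28 and 572 and 405 at stage 31, at least 2.88-fold higher (adjusted p = 9.4e-05). It was the 1 called member of the 8 photoreceptor and retina genes tested in the 30-array fit. In the 4-array fit 5 rose and 1 fell, among the rises arr3.L, the cone arrestin (log2 change 0.83), and gngt1.L, a transducin subunit (0.71). Among 12 melanin genes tested, 2 rose and 1 fell (5 and 1 in the 4-array fit). tyrp1.L, an enzyme of melanin synthesis, went from 3269 and 3208 to 6024 and 5391 (1.76-fold, adjusted p = 0.00021), and pmel.S, which forms the fibrils of the pigment granule, from 783 and 698 to 1474 and 1312 (1.88-fold, adjusted p = 4.6e-06). Replicates of the stages were far from overlapping at both. gpr143.L, a receptor of the pigment granule, fell from 1436 and 1642 to 1196 and 1286, a 1.24-fold change that was not called on the poly-A scale (adjusted p = 0.75) nor without 3 of the 4 arrays (highest adjusted p = 0.30).

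All 6 globin genes tested read higher on average at stage 31, with log2 changes from 0.71 to 1.96. Their replicates differed widely, and 2 rose in the 30-array fit and 1 in the 4-array fit. hba2.L, an alpha-globin, gave 294 and 179 units at stage 28 and 1239 and 642 at stage 31. The replicates did not overlap, and the 3.89-fold change had an adjusted p of 0.049, lost without any 1 array (up to 0.31) and in the 4-array fit (0.062). hba3.L went from 1963 and 1645 to 4350 and 2768, which passed neither fit (adjusted p = 0.18 and 0.082). At stages 37-38 these genes stood at 9424 and 8577, and at 11205 and 10758. In each stage the array with the higher hba2.L also had the higher hba3.L. hba1 and hbg1 were under the median on all 4 arrays.

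Of 22 globin and erythroid genes tested, 5 rose and 1 fell (4 and 4 in the 4-array fit). alas1.S, the first enzyme of heme synthesis, rose from 822 and 1004 to 1345 and 1333 (1.47-fold, adjusted p = 0.00037). fech.L, which inserts iron in the last step of the same pathway, fell from 374 and 444 to 214 and 259 (1.73-fold, adjusted p = 0.0026). On the poly-A scale the fall of fech.L was not called (adjusted p = 0.079). The early blood regulators lmo2.S and tal1.S had log2 changes of -0.37, called in the 4-array fit, and -0.26, called in neither. Outside the list, slc40a1.S, the iron exporter ferroportin, was among the 12 largest rises, from 631 and 591 to 2337 and 1970 (3.52-fold, adjusted p = 4.8e-06). So was hebp1.L, a heme-binding protein, from 536 and 464 to 1727 and 1665 (3.40-fold, adjusted p = 3.4e-11). Both held their call without any 1 array, and at stages 37-38 they stood at 6223 and 5907 and at 2466 and 2745.

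Among 9 endothelial genes tested, 3 fell (33.3%) and none rose in the 30-array fit, against 14.3% of all genes that fell. In the 4-array fit 4 fell and none rose, against 15.3% of all genes that fell. The median log2 change of the list was -0.20. That median was -0.01 on the poly-A scale, -0.39 without stage 31 replicate 1 and -0.41 with all probe sets of a gene averaged. etv2.L, an early regulator of blood vessel precursors, had 319 and 324 units at stage 28 and 149.7 and 212 at stage 31, at least 1.71-fold lower (adjusted p = 0.045, up to 0.32 with 1 array left out). sox7.L fell from 426 and 391 to 249.8 and 259 (1.60-fold, adjusted p = 0.00092). Neither fall was called on the poly-A scale. Of 12 myeloid genes, 2 fell (16.7%) and none rose in the 30-array fit, a share near the 14.3% of all genes. They were il1b.S, the cytokine interleukin 1 beta, by 2.54 and ctss.S, a lysosomal protease, by 0.74 on the log2 scale. Both calls were lost without any 1 array.

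**Figure D2:**
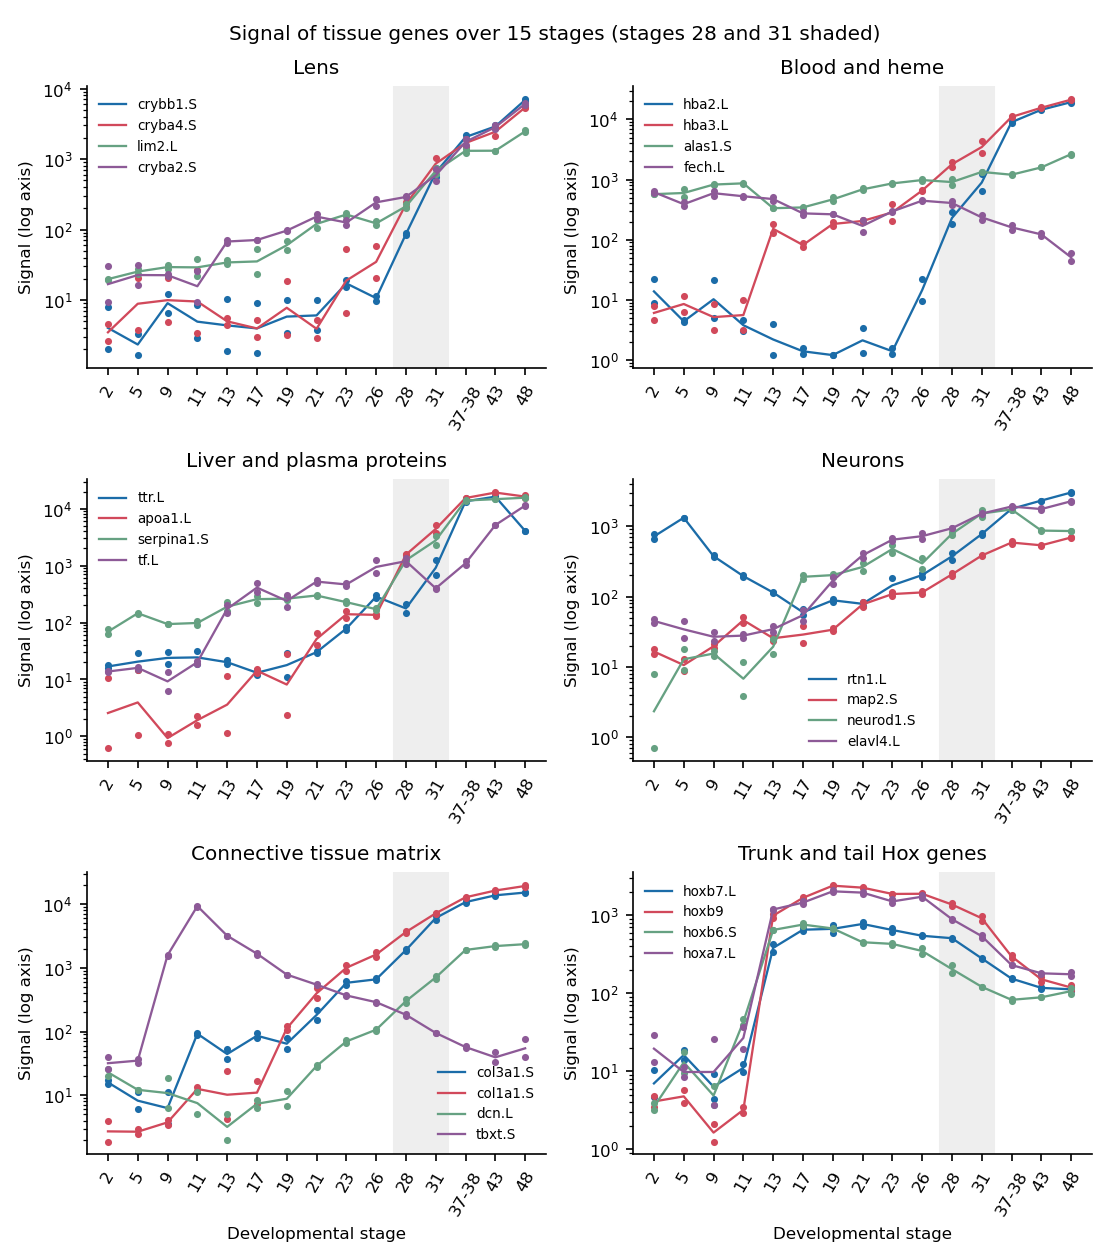
Signal in arbitrary units on a log axis over the 15 stages for genes of 6 tissues, with points for the 2 arrays of each stage and lines through their geometric means. Stages 28 and 31 are shaded. Lens, globin and plasma protein genes climb steeply through the shaded stages, tf.L dips at stage 31, and the Hox genes shown decline.

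Of 39 liver and plasma protein genes tested, 4 rose (10.3%) and 1 fell in the 30-array fit, and 16 rose (41.0%) and 4 fell in the 4-array fit, against 14.2% and 17.3% of all genes that rose. The median log2 change was 0.25, and the median replicate difference of these genes at stages 2, 5 and 9 was 0.68. ttr.L, transthyretin, a carrier of thyroid hormone in plasma, had 210 and 149 units at stage 28 and 1248 and 675 at stage 31, at least 4.88-fold higher (adjusted p = 0.00018). It reached 13679 and 13229 at stages 37-38. serpina1.S, a plasma protease inhibitor, rose from 1253 and 1231 to 3316 and 2319 (2.23-fold, adjusted p = 3.7e-05). ambp.L, the precursor of a plasma microglobulin and a protease inhibitor, rose from 4376 and 4908 to 9640 and 8468 (1.95-fold, adjusted p = 0.003). apoa1.L, the main protein of high-density lipoprotein, went from 1568 and 1545 to 5121 and 3796. It passed only the 4-array fit (adjusted p = 0.0012), as did the fibrinogen chains fga.S (2.69-fold) and fgg.L (at least 1.89-fold). rgn.L, regucalcin, was outside the list and among the 12 largest rises, from 122 and 135 to 681 and 477 (at least 3.41-fold, adjusted p = 0.00085).

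tf.L, transferrin, the iron carrier of plasma, went the other way. Its signals were 1338 and 1070 at stage 28, 389.5 and 409.7 at stage 31, and 1190.0 and 1016 at stages 37-38. The 2.99-fold fall (adjusted p = 0.00072) held under all alternatives run. It was 1 of 4 probe sets among 23403 whose stage 31 arrays were at least 2-fold outside those of stages 28 and 37-38 alike.

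Of 18 pancreas and gut genes tested, 2 rose and 1 fell (8 and 3 in the 4-array fit). fabp2.L, the fatty acid binding protein of the intestine, was under the median at stage 28 (55.2 and 40.5 units) and at 754 and 372 at stage 31. It was at least 3.17-fold higher (adjusted p = 0.050), a call lost without any 1 array. dpp4.L, a peptidase of the intestinal surface, rose from 154 and 143 to 437 and 328 (at least 2.27-fold, adjusted p = 2e-06). cdx2.L, a regulator of posterior gut, fell by 0.56 on the log2 scale, a call lost on the poly-A scale (adjusted p = 0.27) and without stage 31 replicate 1 (0.069). The exocrine enzymes cpa1 and ctrb1 were under the median on all 4 arrays. pnlip, listed as a marker of the same tissue, was above it on all 4. It had 1052 and 877 units at stage 28 and 832 and 680 at stage 31. Of 6 thyroid and pituitary hormone genes tested, none rose and 1 fell (3 and 1 in the 4-array fit). That gene was nts.S, the peptide neurotensin, with 346 and 445 units at stage 28 and 4.43 and 110.3 at stage 31 (at least 2.37-fold lower, adjusted p = 0.018, 0.30 in the 4-array fit and up to 0.36 with 1 array left out).

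Of 27 neuronal genes tested, 4 rose (14.8%) and none fell in the 30-array fit, a share near the 14.2% of all genes, and 2 were called with any 1 array left out. In the 4-array fit 18 rose (66.7%) and none fell, against 17.3% of all genes that rose. At 23 both stage 31 arrays were above both stage 28 arrays, against 34.6% of all genes. The median log2 change was 0.47. rtn1.L, a reticulon of the neuronal endoplasmic reticulum, rose from 417 and 334 to 789.6 and 760.4 (2.08-fold, adjusted p = 8.4e-05). map2.S, a microtubule protein of dendrites, rose from 196 and 219 to 392 and 374 (1.85-fold, adjusted p = 0.02), a call lost without any 1 array. neurod1.S, a neuronal transcription factor, went from 741 and 824 to 1723 and 1338 and mapt.L, the tau protein of axons, from 250.2 and 249 to 443 and 522. Both passed only the 4-array fit (adjusted p = 0.0018 and 0.00068).

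Synaptic genes were divided. Of 16 tested, 1 rose and 2 fell (5 and 4 in the 4-array fit). rab3a.L, a regulator of vesicle release, rose by 0.78 on the log2 scale, while syt1.L, the calcium sensor of release, fell by 0.65 and chrng.L, the embryonic gamma subunit of the muscle acetylcholine receptor, by 0.73. All 3 calls were lost without some of the arrays. In the 4-array fit syn2.S and cplx1.L, both presynaptic, rose by 1.03 and 1.04, and ache.L and chrne.L, of the nerve-muscle junction, fell by 0.60 and 0.45.

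Of 34 neural progenitor genes, 1 rose and 4 fell (3 and 9 in the 4-array fit), with a median log2 change of -0.14 that became 0.05 on the poly-A scale. sox3.S, a factor of dividing neural precursors, fell from 1918 and 1941 to 1389 and 1449.6 (1.36-fold, adjusted p = 1.2e-05). sox2.L fell by 0.21 on the log2 scale (adjusted p = 0.031), a call lost without any 1 array. meis1.S, a Hox cofactor, fell from 457 and 360.4 to 229 and 207 (1.87-fold, adjusted p = 0.0013), also on the poly-A scale. notch1.S, the receptor that holds precursors in division, rose from 1226 and 1173 to 1668 and 1658 (1.39-fold, adjusted p = 7.7e-05). The fall of sox3.S was not called on the poly-A scale (adjusted p = 0.28).

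Of 20 Hox genes tested, 3 fell (15.0%) and none rose in the 30-array fit, a share near the 14.3% of all genes, and all 3 calls were lost with any 1 array left out. In the 4-array fit 12 fell and none rose, against 15.3% of all genes that fell. The median log2 change was -0.44, or -0.24 on the poly-A scale, where no member was called. All 12 called in the 4-array fit were among the 14 genes of paralogue groups 6 to 13, whose median log2 change was -0.55. The 6 genes of groups 1 to 5 had changes from -0.27 to 0.09 and none passed either fit. That division was made after the values were seen, and the difference between the groups was not tested. hoxb7.L went from 514 and 503 to 281 and 279 (1.82-fold lower, adjusted p = 0.047). hoxb9 went from 1299 and 1455 to 855 and 984 and fell by 0.58 on the log2 scale (adjusted p = 0.044). The calls of both, and of hoxb6.S, were also lost on the poly-A scale. In the 30 arrays, the 20 genes had a median replicate difference of 0.79 at stages 2, 5 and 9 and 0.10 at stages 28 and 31. hoxd8.L had a log2 change of 0.59 and passed neither fit. Along with them tbxt.S, the brachyury factor of tail bud and notochord, fell from 178 and 189 to 94.4 and 95.9, at least 1.11-fold (adjusted p = 0.0031).

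**Figure D3:**
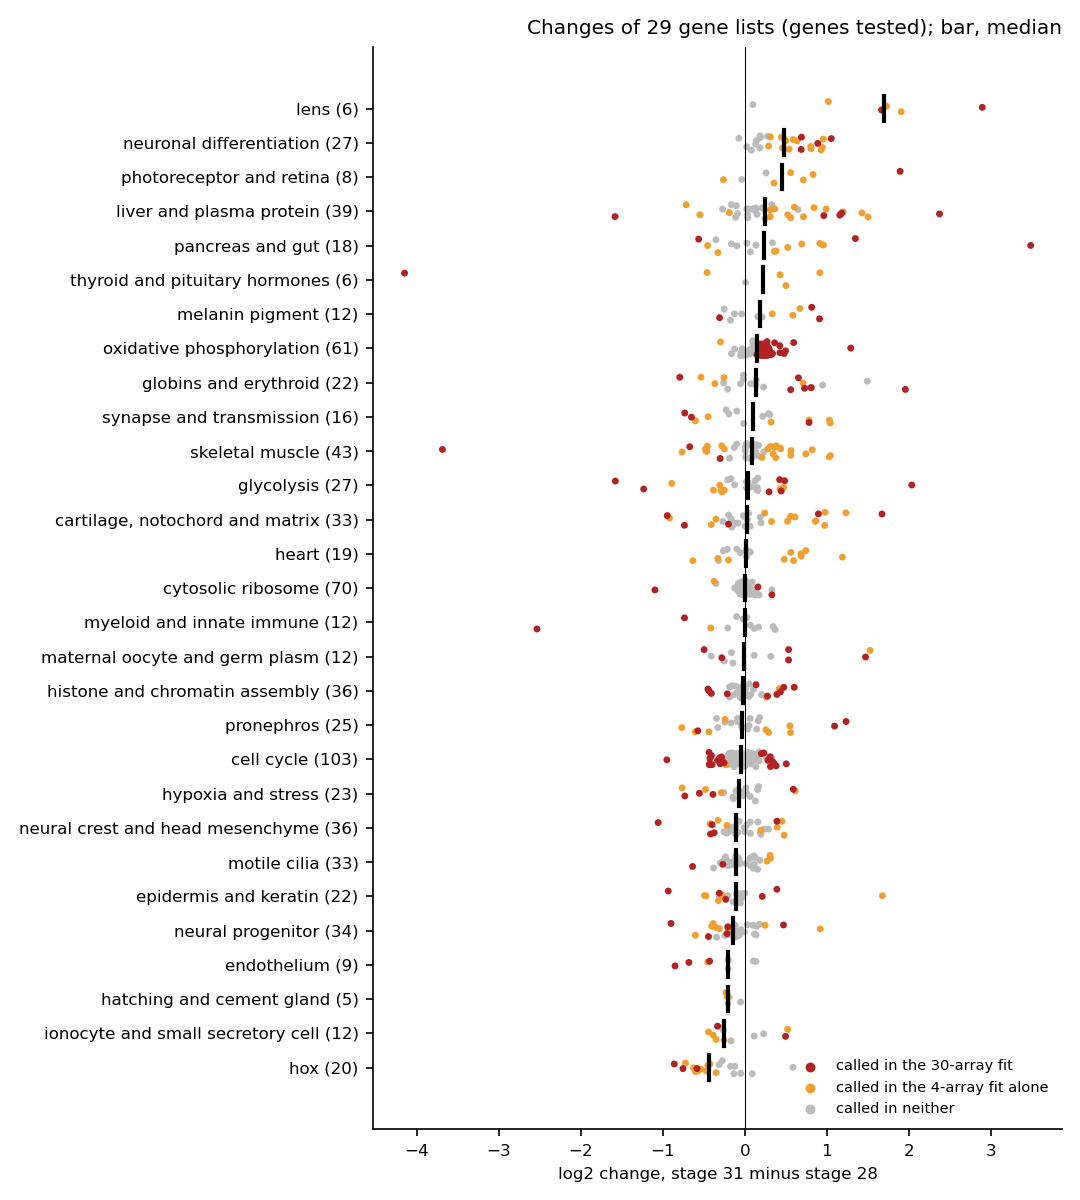
Each point is a gene, placed by its log2 change from stage 28 to stage 31, in 29 lists ordered by their median, drawn as a bar. Red genes were called in the 30-array fit and orange ones in the 4-array fit alone. The lens list has the highest median, 1.70, the Hox list the lowest, -0.44, and the oxidative phosphorylation list is the densest in red points.

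Of 43 skeletal muscle genes tested, none rose and 3 fell (6.98%) in the 30-array fit, and 15 rose and 9 fell in the 4-array fit. The median log2 change was 0.09, or 0.28 on the poly-A scale. Of the 3 falls, 1 was at least 2-fold, and only myod1.S, a smaller fall, is named here. The median replicate difference of these genes was 0.48 at stages 2, 5 and 9. actc1.L, myl1.L and mylpf.L had log2 changes from 0.00 to 0.02. casq1.S, which stores calcium in the sarcoplasmic reticulum, went from 853 and 917 to 1898 and 1753 (2.06-fold), myoz1.S, a protein of the Z-disc, from 827 and 731 to 1517 and 1661 (2.04-fold), and cacna1s.S, the voltage sensor of muscle, from 531 and 504 to 863 and 971 (1.77-fold). These passed only the 4-array fit (adjusted p = 5.1e-05, 9.7e-05 and 0.00042). myod1.S, the muscle determination factor, fell in both fits, from 749 and 807 to 464 and 514 (1.59-fold, adjusted p = 0.0017), but not on the poly-A scale (adjusted p = 0.11). myf5.L, of the same family, went from 354 and 433 to 301 and 269 and passed only the 4-array fit (adjusted p = 0.028).

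Of 19 heart genes tested none passed the 30-array limma fit, in which 3 had an unadjusted p under 0.05, while 7 rose and 3 fell in the 4-array fit. The sarcomere genes myl3.L, the ventricular light chain, went from 123 and 104 to 235 and 282 (at least 1.54-fold) and myh6.S, a cardiac myosin, from 201 and 179 to 329.6 and 307 (1.67-fold). mybpc3.S, the cardiac myosin-binding protein, went from 964 and 992 to 1449 and 1506 (1.51-fold). All 3 passed the 4-array fit (adjusted p = 0.0009, 0.0028 and 0.00064). tbx3.S, a factor of the conduction system and of other organs, fell in that fit from 862 and 812 to 478 and 609 (adjusted p = 0.0053).

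Of 33 genes of cartilage, notochord and matrix, 2 rose and 3 fell (12 and 6 in the 4-array fit). col3a1.S, a fibrillar collagen of soft connective tissue, rose from 1838 and 1967 to 6501 and 5652 (3.19-fold, adjusted p = 0.0031) and held its call under every alternative run. col1a1.S and col1a2.L, the chains of type I collagen, went from 3756 and 3554 to 7269.7 and 7087 and from 2499.6 and 2409 to 4924 and 4755. These near-doublings passed only the 4-array fit (adjusted p = 2.1e-05 and 1.9e-05), as did dcn.L, decorin, which binds collagen fibrils (2.35-fold). Collagens as a group did not rise. Of 11 tested, 2 rose and 0 fell (5 and 2 in the 4-array fit), with log2 changes from -0.92 to 1.67 and a median of 0.05. col2a1.L, the collagen of cartilage and notochord, had 7323 and 8389 units at stage 28 and 7764 and 8428 at stage 31, with overlapping replicates. hapln3.L, a link protein of hyaluronan matrix, fell from 1539.7 and 1304 to 779 and 929 (1.67-fold, adjusted p = 0.0011), and not on the poly-A scale.

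Of 36 neural crest and head mesenchyme genes, 1 rose and 4 fell (5 and 7), with a median of -0.11, or 0.09 on the poly-A scale. cxcl12.L, a chemokine that guides migrating cells, fell by 1.06 on the log2 scale, id2.L by 0.42 and myc.L by 0.40, none of which was called on the poly-A scale. The call of cxcl12.L was also lost without stage 28 replicate 2 or stage 31 replicate 1 (adjusted p = 0.067 and 0.060).

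In the pronephros, the larval kidney, 2 of 25 genes rose and 1 fell (6 and 5 in the 4-array fit). The 2 that rose were fxyd2.S, a subunit that tunes the sodium pump, from 446 and 456 to 1006 and 921 (2.14-fold, adjusted p = 0.00033), and pcbd1.L, a cofactor-recycling enzyme, from 827 and 863 to 2079.5 and 1902 (2.35-fold, adjusted p = 1.6e-07). Both held under all alternatives run. gata3.S fell from 293 and 323 to 193 and 222 (1.49-fold, adjusted p = 0.021), a call lost without stage 28 replicate 2 (0.13) or stage 31 replicate 1 (0.16) and on the poly-A scale (0.38). pax2.L, an early kidney and neural factor, went from 350.1 and 403 to 253 and 241 and passed only the 4-array fit (adjusted p = 0.0061). The median log2 change of the list was -0.04, or 0.16 on the poly-A scale.

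Of 22 epidermal genes, 2 rose and 3 fell (3 and 7 in the 4-array fit), with a median of -0.11 that became 0.08 on the poly-A scale. upk3a.L, a uroplakin of the outer cell membrane, fell from 3472 and 3206 to 1854 and 1646 (1.91-fold, adjusted p = 4.6e-08). krt62.S, a keratin, went from 284 and 297 to 981 and 880.0 (3.20-fold), passed only the 4-array fit (adjusted p = 1.5e-05) and stood at 8417 and 7655 at stages 37-38. agr2.L, abundant in the cement gland, had 12353 and 13475 units at stage 28 and 11156 and 10857 at stage 31, a difference called only in the 4-array fit (adjusted p = 0.031). None of 5 hatching and cement gland genes passed the 30-array limma fit, 0 had an unadjusted p under 0.05, and 2 fell in the other fit. Of 12 ionocyte genes 1 rose and 1 fell (2 and 4), both subunits of the proton pump, atp6v1a.L by 0.50 and atp6v1e1.L by -0.33 on the log2 scale. The call of atp6v1e1.L was lost without stage 28 replicate 1 (adjusted p = 0.29) or stage 31 replicate 1 (0.34), on the poly-A scale (0.65) and in the 4-array fit (0.075). Of 33 cilia genes none rose and 2 fell (3 and 1), with a median of -0.11, or 0.09 on the poly-A scale.

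Genes of oxidative phosphorylation rose, most of them by little. Of 61 tested, 26 rose (42.6%) and none fell in the 30-array fit, against 14.2% of all genes that rose. In the 4-array fit 24 rose (39.3%) and 1 fell, against 17.3% of all genes that rose. The median log2 change was 0.15. At 46 genes both stage 31 arrays were above both stage 28 arrays, against 34.6% of all genes. On the poly-A scale 19 rose and none fell, beside 1578 rises and 269 falls among all 16674 probe sets. That scale moves all changes up, so the absence of falls on it says little. The 26 calls became 13 without stage 31 replicate 1, 16 without either stage 28 array and 22 without stage 31 replicate 2. The calls were spread over the respiratory chain: 12 of 25 genes of complex I, 1 of 3 of complex II, 3 of 7 of complex III, 5 of 11 of complex IV and 4 of 12 of the ATP synthase. slc25a4.L, the ADP/ATP carrier of muscle and heart, had the highest change, from 136 and 168 to 397 and 346 (at least 2.22-fold, adjusted p = 0.0079, up to 0.068 with 1 array left out). Next came cox7a2l.L, of complex IV assembly, from 776 and 704 to 1111 and 1125 (1.51-fold, adjusted p = 0.00016). ndufa3.L, of complex I, rose from 1731 and 1768 to 2492 and 2445 (1.41-fold, adjusted p = 3.6e-06). ndufa10 was represented by its S copy, the brighter over the 30 arrays (mean log2 signal 10.24 against 9.31), which rose by 0.48, while the L copy fell by 0.67 on the log2 scale. At stage 28 the L copy was the brighter, at 3440 and 3596 units against 1711 and 1682, and at stage 31 the S copy, at 2421 and 2310 against 2150.1 and 2260. Of 70 cytosolic ribosome genes 2 rose and 1 fell, with a median of 0.00.

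Among 27 genes of glycolysis, 5 rose and 2 fell (7 and 8 in the 4-array fit). pgam1.L, phosphoglycerate mutase, was among the 12 largest rises, from 164 and 219 to 803 and 753 (at least 4.09-fold, adjusted p = 1.6e-09). A probe set of the S copy changed by 0.25 on the log2 scale and was not called (adjusted p = 0.23). ldhb.S, a lactate dehydrogenase, rose 1.36-fold and pdk1.L, which brakes entry of pyruvate into the mitochondrion, 1.40-fold. aldoc.L, an aldolase, fell from 5298 and 4927 to 1826 and 1601 (2.99-fold, adjusted p = 5.1e-09), and hk2.L, a hexokinase, from 337 and 327 to 132 and 151 (at least 2.00-fold, adjusted p = 2.1e-05). Both falls held under all alternatives run.

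Of 103 cell cycle genes tested, 9 rose and 13 fell (7 and 13 in the 4-array fit), shares below those of all genes in both fits. The 22 calls became 10 without stage 31 replicate 1 and 13 or 14 without any other 1 array. The median log2 change was -0.04, or 0.15 on the poly-A scale. e2f3.S, which drives entry into S phase, fell from 706 and 723 to 373 and 367 (1.93-fold, adjusted p = 9.7e-06). rfc3.L, a loader of the replication clamp, rose from 796 and 846 to 1160.3 and 1169 (1.42-fold, adjusted p = 0.0061). Of 36 histone and chromatin assembly genes, 6 rose and 4 fell (7 and 4), hmgb1.L by 0.60 and npm1.L by -0.45, the latter not called on the poly-A scale (adjusted p = 0.25). Of 23 hypoxia and stress genes 1 rose and 3 fell (2 and 5), with a median of -0.07, or 0.13 on the poly-A scale.

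Some germ plasm RNAs, which mark the few primordial germ cells, were higher at stage 31 than at stage 28. Of 12 maternal oocyte and germ plasm genes tested, 3 rose and 2 fell (4 and 2). pgat.L had 159 and 219 units at stage 28, 522 and 515 at stage 31 (at least 2.72-fold higher, adjusted p = 4.1e-06), and 204 and 165 at stages 37-38. At stage 23 it had 1020.2 and 1015 and at stage 26 219.8 and 280.0. ddx25.L, an RNA helicase of germ plasm, rose from 238 and 229 to 321 and 356 (1.45-fold, adjusted p = 0.0015) and wnt11b.L, a maternal signal of the vegetal egg, from 461 and 529 to 685 and 747 (1.45-fold, adjusted p = 0.0099, up to 0.097 with 1 array left out). dazl.L, an RNA-binding protein of germ cells, went from 65.0 and 92.8 to 216 and 233 and passed only the 4-array fit (adjusted p = 0.00076). All 4 were lower again at stages 37-38. ddx4.L, the germ cell helicase vasa, fell from 1246 and 1159.5 to 865 and 839 (1.41-fold, adjusted p = 0.032), a call lost without any 1 array.

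Many of the largest changes belonged to none of the lists, and several had an unusual course. zbtb33.S, the methyl-DNA-binding repressor Kaiso, had the largest rise, from 1069 and 1026 to 9171 and 9236 (8.79-fold, adjusted p = 0.00037). It had stood at 11112 and 10734 at stage 21, and at 128 and 916 at stage 23. Its 2 other probe sets had log2 changes of 0.15 and -0.15, neither called. exog.L, a nuclease of the mitochondrion, had 1081 and 1067 units at stage 21, 108 and 150.4 at stage 28 and 1116 and 889.9 at stage 31 (at least 5.97-fold higher, adjusted p = 4.1e-07). The 2 other probe sets of exog.L lay under the median at both stages and were not tested. Their log2 changes were -0.34 and 0.05. Of the falls, mpv17l.S, a protein of organelle membranes, had 50.5 and 53.8 at stage 21, 880.2 and 1502 at stage 28 and 65.4 and 42.0 at stage 31 (at least 6.94-fold lower, adjusted p = 4.7e-07). tlrs5.L, named for a soluble Toll-like receptor, fell from 1420.2 and 1354 to 98.6 and 103 (at least 8.37-fold, adjusted p = 1.3e-08), cyp17a1.L, a steroid hydroxylase, from 1068 and 844 to 98.7 and 92.0 (at least 5.73-fold) and cd74.L, the invariant chain of class II histocompatibility molecules, from 700.1 and 740.3 to 72.6 and 76.4 (at least 4.34-fold).

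The arrays of stages 26 and 28 stood together at these genes. Counted after this was seen, 38 of 23403 probe sets had all 4 arrays of stages 26 and 28 at least 2-fold above (25) or below (13) all 4 arrays of stages 23 and 31, after signals under the median were raised to it. The same count for the other 11 pairs of neighbouring stages was 0 to 8 for 8 pairs, and 17, 25 and 94 for pairs that include stage 9 or 11. Among single stages, stage 23 stood apart in the same way from stages 21 and 26 at 50 probe sets, 27 above and 23 below, and stage 28 from stages 26 and 31 at 0. A further 12 probe sets set stages 23, 26 and 28 apart from stages 21 and 31. The 38 and the 12 made up 13.1% and 4.14% of the 290 changes of at least 2-fold, and 20.7% and 7.44% of the 121 falls. They include exog.L, cyp17a1.L, cd74.L, tlrs5.L, olfm4.L, aldoc.L and nts.S in the first class and zbtb33.S and mpv17l.S in the second. The neurotensin gene nts.S had 3.52 and 14.2 units at stage 23 and 385 and 589 at stage 26.

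Other probe sets of the same genes did not always move with them. Of these 50 in all, 29 carried a symbol and 17 had another tested probe set of that symbol. In 6 of these 17 another probe set changed at least 2-fold in the same direction, and in 11 none did. In some of the 11, such as pcbp3.L, another probe set had a smaller called change in the same direction. In others, such as chtop.S, another was called the opposite way. Both probe sets of XB5871767.L are among the 6, each counted for the other. The same count over all genes with several probe sets was not made. eif2s1.S, a translation initiation factor, fell at 1 probe set by 6.16 on the log2 scale, while its 4 others changed by 0.11 to 0.51. nubp1.L fell at 4 probe sets by 7.86, 4.60, 2.84 and 0.31 and rose at another by 1.54, so it is counted in the 6 and in the 11. Stage 31 signals behind 6.16, 7.86 and 4.60 were 26.0 and 11.6, 0.30 and 92.3, and 6.53 and 62.4 units. These lay under the array median, and so did an array behind 2.84 and behind 1.54. Such changes were not set against the median here, and their size is uncertain. Which pools shared parents, and on which day they were collected, is not stated in the labels, and stage and pool cannot be told apart.

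**Figure D4:**
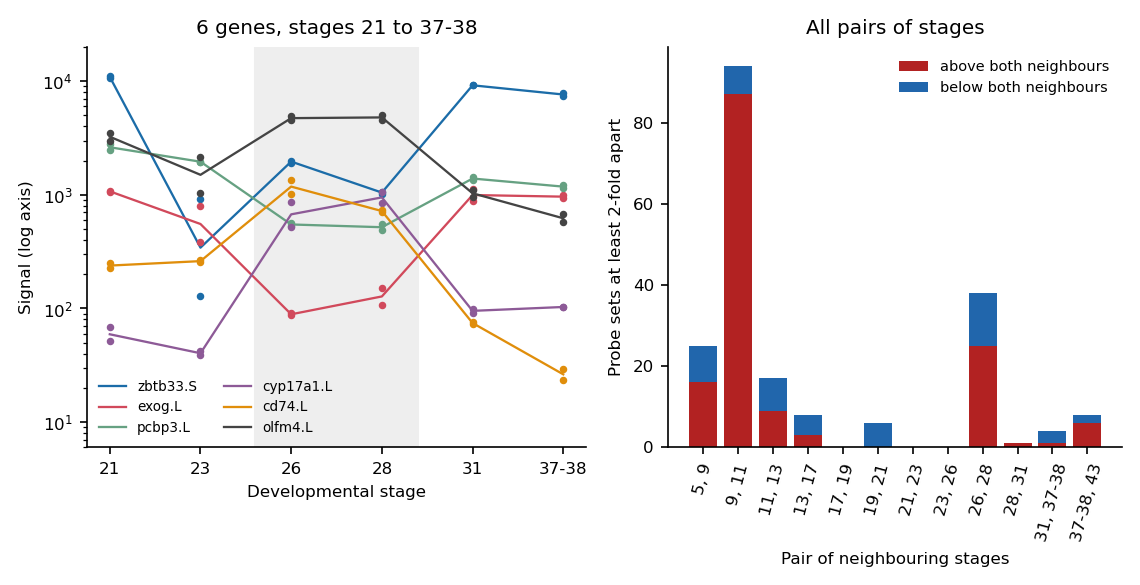
Left, signal on a log axis of 6 genes at stages 21 to 37-38, with points for arrays, lines through geometric means and stages 26 and 28 shaded. Right, for each pair of neighbouring stages, the number of probe sets whose 4 arrays lie at least 2-fold above (red) or below (blue) all arrays of the stages on both sides. Stages 26 and 28 have 38 such probe sets, and the pair 28 and 31 has 1.

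Of the other leading falls, val.L went from 5459.7 and 6306 units at stage 26 to 1531 and 1885 at stage 28 and 355 and 360.1 at stage 31 (4.75-fold lower, adjusted p = 0.0047). spam1.L, a hyaluronidase in mammals, went from 3508 and 2932 to 929 and 1051 and then to 152 and 269 (at least 4.68-fold lower, adjusted p = 0.040). The call of spam1.L was lost without any 1 array. olfm4.L, a secreted glycoprotein, was level between stages 26 and 28, at 4535 to 5060.2 units, and had 962 and 1108 at stage 31 (4.65-fold lower, adjusted p = 0.0034). unc45b.S, a myosin chaperone, had 1104 and 887 at stage 28 and 21.2 and 278 at stage 31. Its stage 31 replicates lay far apart, and its call in the 30-array fit (adjusted p = 0.018) was absent from the 4-array fit (0.27). acod1lb.L and phyhdlb.L fell 3.87-fold and 3.98-fold, and both calls were lost without stage 28 replicate 2 or stage 31 replicate 1. The call of phyhdlb.L was also lost without stage 31 replicate 2 and on the poly-A scale (adjusted p = 0.11). Another probe set of acod1lb.L fell by 2.76 on the log2 scale and belongs to those that set stages 23, 26 and 28 apart. A further probe set of acod1lb.L changed by -0.09 and was not called (adjusted p = 0.74). slc25a26.L, a carrier of the methyl donor into the mitochondrion, fell at least 3.62-fold and held its call without any 1 array. atf4-iii fell at least 3.71-fold and was not called in the 4-array fit (adjusted p = 0.089). The rises LOC101027296 (3.29-fold), MGC84384 (at least 3.33-fold) and XB5871767.L (3.82-fold) carry no descriptive name, and the last belongs to the probe sets that set stages 26 and 28 apart.

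The changes were next read in the arrays of stages 26 and 37-38, which enclose the interval and share none of its arrays. Both comparisons came from the same fit and share each probe set's estimate of the spread. A probe set with a small spread is thus favoured for a call in both, and the shares below are not an independent repeat. Of the 2050 probe sets higher at stage 31, 1442 (70.3%) were also called higher at stages 37-38 than at stage 26, 174 (8.49%) were called lower and 434 were not called. Of all tested probe sets 26.9% were called higher in that comparison. Of the 2392 lower at stage 31, 1905 (79.6%) were called lower, against 36.5% of all, and 77 (3.22%) higher. Among the 290 changes of at least 2-fold, 264 (91.0%) were called in the same direction. For the probe sets that set stages 26 and 28 apart this comparison repeats the same difference, because stage 26 shares it.

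**Figure D5:**
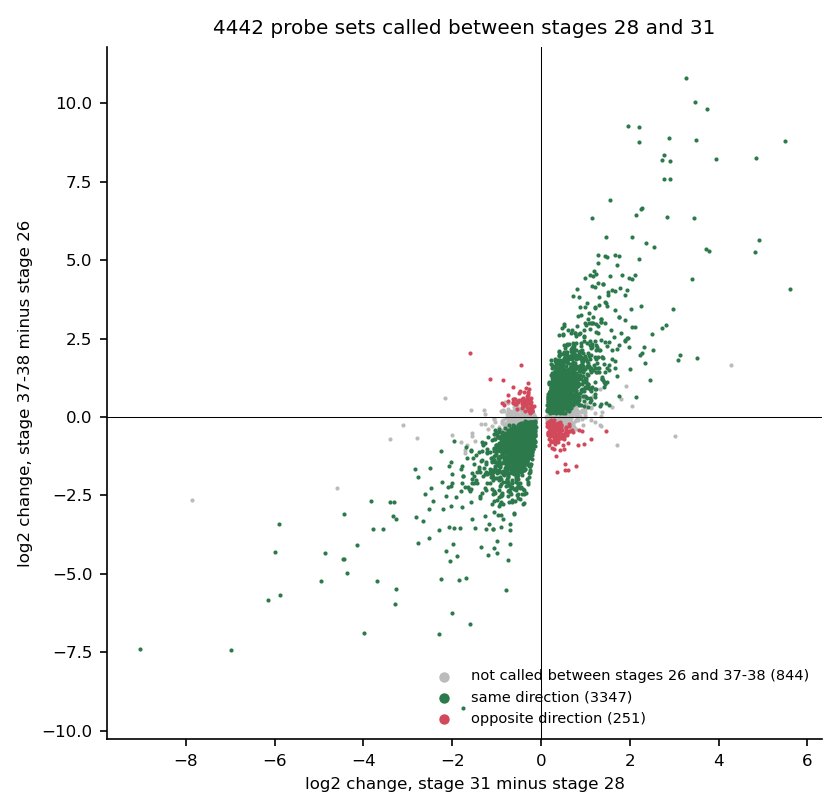
Each point is 1 of the 4442 called probe sets, with its log2 change from stage 28 to 31 across and from stage 26 to stages 37-38 upward. Green points (3347) were called in the same direction in both, red points (251) in opposite directions, and grey points (844) were not called between the outer stages. Most points lie where both changes have the same sign.

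The L and S copies of a gene could be compared at 1287 genes with a tested probe set for each. Both copies were called in the same direction at 135 genes and in opposite directions at 22, 1 copy was called at 429 and none at 701. rcn1, a calcium-binding protein of the endoplasmic reticulum, had the widest opposition where signals were not raised to the median. Its L copy was up by 1.71 and its S copy down by 2.03 on the log2 scale. The L copy had 35.2 and 168.9 units at stage 28 and 308 and 207 at stage 31. The S copy went from 290 and 309 to 69.2 and 77.8. The values 35.2, 69.2 and 77.8 were under the array median, so the size of both changes is uncertain. The L copy was not called in the 4-array fit (adjusted p = 0.31). dpm2, of dolichol sugar synthesis, fell by 0.37 at its L copy and rose by 1.05 at its S copy, and nde1, a dynein regulator, rose by 0.79 at L and fell by 0.53 at S. With 1 array left out, the highest adjusted p was 0.46 for rcn1.L, 0.30 for dpm2.L and 0.097 for nde1.S, while the other copies of these genes held their calls. Among 234 symbols with 2 or more called probe sets, 197 were called in 1 direction.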

How the data were processed

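Each deposited value is the linear signal intensity of a probe set. Per the submitters' processing notes the authors used MAS5, with no version stated. Per the labels' protocols, total RNA was taken with a lipid tissue kit and labelled with biotin in 1 amplification cycle. Every array had the same trimmed mean, so no further normalization was applied. Control probe sets (96 of 32635) were left out, and detection calls were not used here.

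Signals were converted to log2 and fitted with limma 3.58.1 in R 4.3.3, with a mean per stage over all 30 arrays, which share 1 estimate of the spread (15 residual degrees of freedom), moderated with trend and robust settings. The contrast of stage 31 minus stage 28 was adjusted by Benjamini-Hochberg over the 16674 probe sets at 0.05. Adjusted p-values without another name come from this fit, and those of the "4-array fit" from the same model on the 4 arrays alone. The contrast of stages 37-38 with stage 26 was tested in the 30-array model. Signals raised to their array's median gave the lower bounds and the order of the largest changes. The fit was tested on simulated data.

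GEO's platform annotation named 15495 probe sets with 1 symbol and 279 with several, and left 16765 unnamed. Of the 15495, 15384 were found by Entrez identifier in RefSeq's table of assembly Xenopus_laevis_v10.1, which renamed 2. A gene, its L and S copies joined, was represented by the tested probe set with the highest mean log2 signal, taken over all 30 arrays. By the naming rule, the text may name the 12 genes that rose most and the 12 that fell most among those called, with replicates apart and the brighter stage above the median, for each of 29 lists its 3 most changed called members, further members of the lens, globin, melanin, hatching gland, heart and pronephros lists, genes that check the labels, and L and S pairs called in opposite directions. The members, lists and tests were chosen with earlier results of these data known. The labels do not say whether replicate numbers pair samples across stages, and the main fit treated them as unpaired. Differences between replicates 1 and 2 correlated at 0.07 between stages 28 and 31. Over the 105 pairs of stages the correlations ran from -0.08 to 0.09. Low correlations cannot settle whether pools were paired. Plots were made with matplotlib 3.10.9 under Python 3.11.15. Alternatives are given at the end.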

Additional observations from a re-analysis of the deposited data

How the results depend on the processing

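The 4442 calls (2050 higher, 2392 lower) stayed within 1.5 times under array weights by stage, a filter over all 15 stages, no filter, 50 units added to the signal, median centring, quantile normalization, no trend or robust moderation, no probe sets ending in _s_at or _x_at, and the 4 arrays alone. A filter at the 75th percentile, with 8437 probe sets tested, gave 2665 (1242 higher, 1423 lower). An adjusted p under 0.01 gave 2625 (1237 and 1388), and an added 2-fold threshold 443 (237 and 206). Poly-A scaling gave 1847 calls, with 269 lower. Leaving out 1 array gave 2527 to 3254 calls, 1174 to 1551 higher and 1353 to 1703 lower. The count fell by more than 1.5 times without stage 31 replicate 1 (2527) and without stage 28 replicate 2 (2847). With the replicate number as a block 4412 were called, although the labels do not say that the numbers pair samples. Among the 27 lists with a called member, the number of calls fell by more than 1.5 times in 21 with at least 1 array left out, in 18 without stage 31 replicate 1. The alternatives were run on the 92 genes that the naming rule takes for their change, not all of them named above, and on 16 further called genes of the text. None turned the sign of any of these 108, an outcome largely fixed beforehand. Filters, weights by stage, the block and moderation leave the difference of stage means as it is. The 92 were taken with replicates apart, so leaving out 1 array could not turn their sign. Of the 92 calls, 51 held without any 1 of the 4 arrays, 17 were lost without each of them, 37 were lost on the poly-A scale and 28 held under every setting run. The shares of calls repeated between stages 26 and 37-38 stayed within 1.5 times at an adjusted p under 0.01 (71.5% and 80.8%) and on the poly-A scale (94.0% and 65.1%). The number of arrays limits what signals near or under the array median can show.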
